A study of Mus musculus with 98 samples.

Results

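A set of 8 genes of the fibroblast growth factor (FGF) system were followed through the thymic stroma of the mouse. They comprise 5 ligands (*Fgf7*, *Fgf10*, *Fgf1*, *Fgf2* and *Fgf18*) and 3 receptors (*Fgfr1*, *Fgfr2* and *Fgfr3*), chosen by name as possible mesenchymal sources and epithelial receivers, and all 8 are listed in each of the 3 deposited count tables, which share 18454 gene symbols. *Fgf2* fell below the minimum count of the bulk test, so 7 of the 8 were tested there.

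FGFs are secreted ligands that bind receptor tyrosine kinases at the cell surface together with heparan sulfate, and activated receptors signal through the adapter FRS2 to the ERK cascade. The same cascade induces its own inhibitors, among them the Sprouty proteins and the phosphatase DUSP6. FGF7 and FGF10 are known as mesenchymal ligands of the epithelial splice form of FGFR2, and this pair of ligands and their receptor are known to be needed for the growth of the thymic epithelium. Counts per gene do not separate the epithelial from the mesenchymal splice form, so a level of *Fgfr2* here is the sum of both.

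Expression was measured in 98 libraries. Nonepithelial thymic stroma (NETS) of wild-type (WT) C57BL/6 mice, sorted as Ter119-CD45-EpCAM- cells, was captured as single cells in 8 libraries, of which the 2 youngest ages, E12.5 and E13.5, gave a single one, from pooled embryonic thymi, and E16.5, birth (P0) and 4 weeks a pair. Newborn Ter119-CD45- stroma, which keeps the thymic epithelial cells (TEC) and was fixed with RNAprotect, was captured from 3 WT mice and 3 mice with 1 lost allele each of *Tbx1* and *Crkl* in the germline (Tbx1+/-Crkl+/-). Bulk RNA-seq was made of CD45- populations of WT mice, sorted by flow cytometry at P0 and 4 weeks, with 6 libraries each: CD31+ endothelium, Ly51+gp38- mural cells (pericytes and vascular smooth muscle together), gp38+CD26+ (capsule) and gp38+CD26- (medulla-enriched) fibroblasts, cortical TEC (cTEC) and medullary TEC (mTEC), with mTEChi and mTEClo, named for their high or low MHC class II, at 4 weeks only. Cell subtypes are those the authors gave each cell, written as capsular (CapFb) and medullary (MedFb) fibroblasts, pericytes (Pc), vascular smooth muscle (VSM), endothelium (En), mesothelium (Mes) and TEC subtypes.

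The age series held 28583048 to 93040640 unique molecular identifiers (UMIs, 1 per captured transcript) per library and the newborn data 4978011 to 31418527, with medians of 10005 to 14031 and 2391 to 4686 UMIs per cell. The bulk libraries used held 5785352 to 15852166 counts. One further library labelled gp38+CD26+ at 4 weeks held 25702 counts, none of them of any of the 8 genes, and was left out, which leaves 5 libraries in that group. In *Tbx1*, the check of the genotype labels, 0, 0 and 8 UMIs were found in the Tbx1+/-Crkl+/- libraries and 13, 6 and 19 in WT. As CPM (counts scaled to the library total) these were 0, 0 and 0.872 against 1.79, 0.441 and 0.605, so Tbx1+/-Crkl+/- replicate 3 lay above WT replicates 2 and 3. *Crkl* was at 23.6 to 26.9 CPM against 18.4 to 25.1 CPM. These 3′ counts thus do not bear out the *Crkl* label, or the *Tbx1* label of that replicate. Nothing in the labels says that bulk libraries came from separate animals, so their p-values measure the spread between libraries, which may be technical.

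All 8 are protein-coding genes of GRCm38 (GENCODE vM21). The ligand genes lie at chr2:126034658-126091185 on the plus strand (*Fgf7*), chr13:118669791-118792115 on the plus strand (*Fgf10*), chromosome 18 (*Fgf1*), chr3:37348346-37410108 on the plus strand (*Fgf2*) and chr11:33117430-33147400 on the minus strand (*Fgf18*). The receptor genes lie at chr8:25513654-25575718 on the plus strand (*Fgfr1*), chr7:130162451-133123350 on the minus strand (*Fgfr2*) and chr5:33721674-33737068 on the plus strand (*Fgfr3*).

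The sorted populations carried the markers of their names. *Epcam* ranged from 0 to 2.69 CPM in gp38+ fibroblasts and from 216 to 809 CPM in TEC, and *Pdgfra*, a receptor marking mesenchyme, ranged from 614 to 1398 CPM in the fibroblasts and from 0 to 16.1 CPM in TEC. The mTEC populations also held *Rgs5*, a pericyte marker, at 1287 to 4100 CPM. Whether such RNA came from other cells, and its part in the results below, was not tested. In bulk samples fewer cells of a type and less RNA per cell cannot be told apart.

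The 3 genes on which the source-and-receiver comparison turns are shown here by the 250 bases before their RefSeq start on GRCm38.p6, because *Fgf7* and *Fgf10* had nearly the same pattern over the bulk populations (given further on) and *Fgfr2* encodes their receptor. Of the 8 genes, 6 had an entry. Capitals mark a match on either strand to 1 of 3 motifs, the TATA box TATAAA, the SP1 core GGGCGG and the NF-Y core CCAAT, and a match on the other strand appears as its reverse complement. No matches overlap here. For *Fgf10* and *Fgfr2* the RefSeq start lies inside the gene's GENCODE span.
Fgf7, chr2:126034408-126034657, plus strand: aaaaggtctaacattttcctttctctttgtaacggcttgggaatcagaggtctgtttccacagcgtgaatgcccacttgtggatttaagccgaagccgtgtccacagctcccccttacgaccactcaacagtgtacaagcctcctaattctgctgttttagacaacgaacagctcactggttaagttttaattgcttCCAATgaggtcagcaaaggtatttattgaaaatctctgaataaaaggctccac
Fgf10, chr13:118714449-118714698, plus strand: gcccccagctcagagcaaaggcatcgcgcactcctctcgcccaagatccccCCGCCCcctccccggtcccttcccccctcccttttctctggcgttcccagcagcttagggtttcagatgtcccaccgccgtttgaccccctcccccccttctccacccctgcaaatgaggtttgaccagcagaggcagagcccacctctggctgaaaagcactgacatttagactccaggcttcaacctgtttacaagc
Fgfr2, chr7:130266809-130267058, minus strand: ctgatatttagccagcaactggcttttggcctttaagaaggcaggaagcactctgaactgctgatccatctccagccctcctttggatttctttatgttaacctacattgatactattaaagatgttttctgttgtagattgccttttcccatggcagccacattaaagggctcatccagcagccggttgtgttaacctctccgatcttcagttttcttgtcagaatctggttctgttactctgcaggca
*Fgf7* held 1 CCAAT, *Fgf10* 1 GGGCGG and *Fgfr2* none of the 3 motifs, so the pair of ligands shared none of these letters. Their GC contents were 43.6%, 61.2% and 44%, beside a median of 52.4% over 32851 promoters, of which 12.4% hold TATAAA, 32.7% GGGCGG and 33.8% CCAAT.

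The first question was which sorted cells hold the ligands and which the receptors. At P0, 6 of the 7 tested genes differed between gp38+ fibroblasts (12 libraries) and TEC (12 libraries of cTEC and mTEC), where 37.9% of 20417 genes did (edgeR quasi-likelihood test, Benjamini-Hochberg adjusted p under 0.05). *Fgf7*, *Fgf10*, *Fgf1*, *Fgf18* and *Fgfr1* were higher in fibroblasts and *Fgfr2* was higher in TEC. At 4 weeks the same 6 genes differed in the same directions, where 39.3% of all genes did. *Fgfr3* passed in neither comparison. The share of called genes is large in general between cells this unlike, so the counts are read as a description of direction.

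*Fgf7*, also called keratinocyte growth factor, was a transcript of fibroblasts. At P0 it ranged from 71.4 over a median of 99.5 to 152 CPM in gp38+CD26+ and from 31.7 over 48.3 to 52.8 CPM in gp38+CD26- libraries, was 0 in all 6 cTEC libraries and did not exceed 2.39 CPM in mTEC. No fibroblast library overlapped with a TEC library. The means of fibroblasts and TEC were 74.4 ± 37.6 and 0.633 ± 0.983 CPM (SD, n = 12 each), which is 118-fold as a ratio of means (adjusted p = 3.57e-08). At 4 weeks they were 27.7 ± 20.4 (n = 11) and 0.618 ± 2.11 CPM (adjusted p = 8.02e-07).

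*Fgf10*, a relative of *Fgf7* that binds the same receptor form, was distributed likewise. It ranged from 166 over 210 to 318 CPM in gp38+CD26+ at P0, from 76.3 over 85.4 to 187.2 CPM in gp38+CD26-, was 0 in every cTEC library and reached 6.65 CPM in mTEC. Again the fibroblast libraries lay wholly above the TEC libraries, with means of 165.2 ± 77.98 and 1.48 ± 2.42 CPM and a ratio of means of 111.7 (adjusted p = 4.6e-10). Per kilobase of exon, *Fgf10* was at 48.6 ± 12.6 and *Fgf7* at 32.0 ± 9.62 CPM per kb in the gp38+CD26+ libraries at P0 (SD, n = 6).

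*Fgfr2*, their receptor, showed the mirror image. Levels in cTEC ranged from 94.5 over 133 to 260 CPM at P0 and from 87.9 over 109 to 151.1 CPM at 4 weeks, and those in mTEC from 24.3 over 61.2 to 114.5 and from 19.6 over 37.3 to 78.98 CPM. Fibroblast libraries held 0 to 43.4 CPM, which overlaps the lower end of mTEC but not cTEC. TEC exceeded fibroblasts 8.5-fold in mean at P0 (109 ± 71.6 against 12.8 ± 11.6 CPM, adjusted p = 0.00049) and 5.19-fold at 4 weeks (77.3 ± 43.4 against 14.9 ± 11.5 CPM, adjusted p = 0.00446). Fitted within one title prefix (TXCK or DFCK, described further on), the edgeR call at 4 weeks was lost in both (adjusted p = 0.0617 and 0.0967). That at P0 was lost in TXCK (adjusted p = 0.0591). The direction stayed the same in these fits. Per kilobase, *Fgfr2* was at 15.4 ± 6.33 in cTEC at P0 and *Fgfr1* at 20.3 ± 7.83 CPM per kb in gp38+CD26+ fibroblasts at that age.

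*Fgfr1*, the receptor used by many mesenchymal cells, was nearly absent from TEC. It ranged from 114.9 over 192.03 to 343 CPM in gp38+CD26+ and from 131.3 over 166.8 to 239 CPM in gp38+CD26- at P0, and no TEC library of cTEC or mTEC exceeded 5.65 CPM at either age. The difference was 229-fold at P0 (187.02 ± 60.0 against 0.817 ± 1.65 CPM, adjusted p = 7.09e-13) and 396-fold at 4 weeks (219 ± 89.6 against 0.552 ± 1.22 CPM, adjusted p = 3.44e-14). Each of *Fgfr1* and *Fgfr2* was thus high in one of these compartments and low in the other.

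The other ligands were less sharply divided. *Fgf1*, a ligand of all FGF receptors, was 3.71-fold higher in fibroblasts than in TEC at P0 (21.7 ± 10.4 against 5.85 ± 3.70 CPM, adjusted p = 0.00314), with overlapping libraries, and 5.87-fold higher at 4 weeks (136.2 ± 54.03 against 23.2 ± 16.0 CPM, adjusted p = 7.94e-05), without overlap. *Fgf18*, best known from cartilage and bone, was low in these bulk libraries, at 2.40 ± 4.09 against 0.358 ± 0.642 CPM at P0 (adjusted p = 0.00953). *Fgf2*, also called basic FGF, was above 0 in 8 libraries, of 5 groups, and never above 1.70 CPM. *Fgfr3* at P0 stood at 6.71 ± 4.56 CPM in mTEC and 0.171 ± 0.226 CPM in gp38+CD26+ and did not exceed 12.6 CPM in any library.

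**Figure D1:**
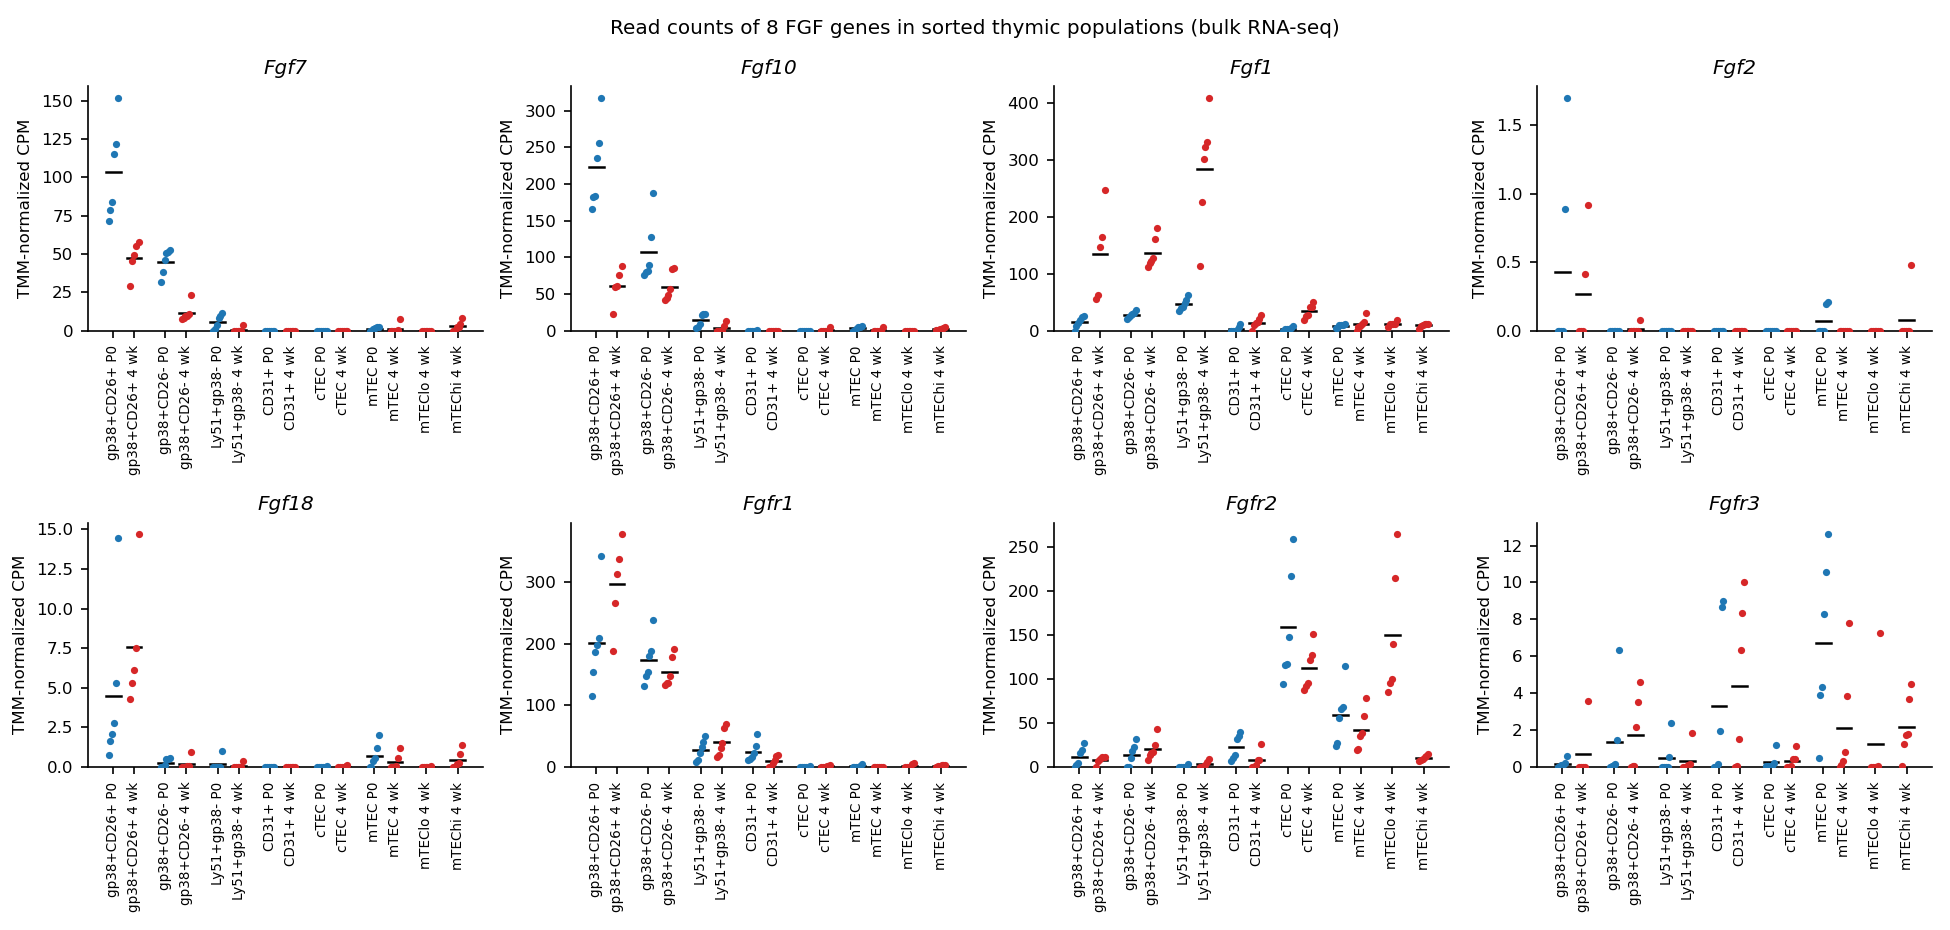
CPM of the 8 genes (y axis, TMM-normalized) in each bulk library by sorted population and age (x axis; blue, P0; red, 4 weeks), with black lines at the mean of each group. *Fgf7*, *Fgf10* and *Fgfr1* stand high in the 2 gp38+ populations and near 0 in TEC, and *Fgfr2* stands high in cTEC and mTEClo.

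Within the mesenchyme, Ly51+gp38- mural cells held *Fgf1* (46.9 ± 10.6 CPM at P0) and, at a lower level than fibroblasts, *Fgfr1* (27.7 ± 16.4 CPM at P0 and 40.3 ± 22.5 CPM at 4 weeks, with no library at 0). Against Ly51+gp38- cells, 4 of 7 genes differed at P0 (*Fgf7*, *Fgf10*, *Fgfr1* and *Fgfr2*, all higher in fibroblasts), where 13.2% of all genes did, and 4 of 7 at 4 weeks (*Fgf7*, *Fgf10*, *Fgf18* and *Fgfr1*), where 21.7% did. *Fgf10* was at 3.27 to 22.6 CPM in Ly51+gp38- at P0, 11.8-fold below the fibroblasts (adjusted p = 0.0236), and *Fgf7* at 0 to 11.8 CPM, 12.7-fold below (adjusted p = 0.0455, lost with no filter on low counts at 0.0608 and within either title prefix). *Fgfr2* at P0 (12.8 ± 11.6 against 0.545 ± 1.31 CPM, with overlap, adjusted p = 0.0015) did not pass when only the groups compared shared the spread (adjusted p = 0.0803), and *Fgf18* at 4 weeks did not without the highest fibroblast library (adjusted p = 0.0539). With a block by library number, described further on, *Fgf7* at P0 and *Fgfr1* at 4 weeks did not pass (adjusted p = 0.0660 and 0.0504). *Fgf1* went the other way at 4 weeks, at 285 ± 102 CPM in Ly51+gp38- and 136.2 ± 54.03 CPM in fibroblasts, with an adjusted p of 0.294 that became 0.00626 when only the groups compared shared the spread. Of the 2 cell types in this sort, vascular smooth muscle held most of the *Fgf1* UMIs in the single-cell libraries at 4 weeks (341 and 312, against 41 and 31 in pericytes).

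The 2 fibroblast populations differed less. At P0, 0 of 7 genes passed between gp38+CD26+ and gp38+CD26-, where 4.2% of all genes did, and 1 had an unadjusted p under 0.05 and DESeq2 called none. *Fgf7* was nevertheless without overlap, at 104 ± 31.2 against 45.05 ± 8.38 CPM (adjusted p = 0.832), and both it and *Fgf10* (223 ± 57.9 against 107.01 ± 43.5 CPM) passed when only these groups shared the spread (adjusted p = 0.00707 and 0.0338). At 4 weeks *Fgf18* alone passed in the fit over 14 groups, where 6.03% of all genes did, at 4.31, 5.28, 6.15, 7.49 and 14.7 CPM in gp38+CD26+ and 0 to 0.927 CPM in gp38+CD26- libraries (adjusted p = 0.0285), and this call was lost without the library with 14.7 CPM (adjusted p = 0.0607). *Fgf7* was again without overlap, at 47.3 ± 11.3 against 11.4 ± 5.78 CPM, and it and *Fgfr1* (297 ± 72.8 against 153.6 ± 25.2 CPM) passed when only these groups shared the spread (adjusted p = 0.000785 and 0.00216). The fit over all 14 groups differs from the fit of these groups in the spread it pools, the filter and the normalization. Which of these makes the difference was not tested.

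Within TEC, *Fgfr2* separated the maturation stages of the medulla. mTEChi, many of which carry the regulator AIRE, held 7.36 over 10.4 to 14.97 CPM and mTEClo 85.7 over 120 to 265 CPM. The libraries did not overlap, and *Fgfr2* was 14.2-fold lower in mTEChi (10.6 ± 2.82 against 150 ± 73.5 CPM, n = 6 each, log2 -3.82 ± 1.04 SE, adjusted p = 0.00664). Libraries labelled TXCK and DFCK, prefixes in the sample titles whose meaning is not given, both showed it (12.9 against 93.8 CPM and 8.33 against 206 CPM), though neither passed alone (adjusted p = 0.172 and 0.0932). In all, 4 of 7 genes passed between mTEChi and mTEClo, where 19% of all genes did.

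The other 3 of these were traces of ligand in mTEChi. *Fgf7* was above 0 in 4 of 6 mTEChi libraries with at most 8.01 CPM, *Fgf10* in 6 of 6 at 0.551 to 4.68 CPM, and *Fgf18* in 4 of 6 with at most 1.42 CPM. In mTEClo *Fgf7* and *Fgf10* had no count in any library, which puts them at least 56.1-fold and 48.7-fold below mTEChi, taking a floor of 3 counts over the 6 libraries (adjusted p = 0.00266 and 0.00311), and *Fgf18* was at 0.0140 CPM (adjusted p = 0.0479, and 0.0913 in DESeq2). Both *Fgf7* and *Fgf10* still passed without their highest library. Fitted within one title prefix, *Fgf7* did not pass in DFCK (adjusted p = 0.110) and *Fgf10* did not in TXCK (adjusted p = 0.0896). *Fgf18* passed in neither prefix, nor with the prefix as a term or with no filter (adjusted p = 0.0525 and 0.0593). *Fgf7*, *Fgf10* and *Fgf18* met the minimum count through other groups of the fit, and a fit of mTEChi and mTEClo alone did not test them. *Pdgfra* was at 0 to 16.1 CPM in mTEChi and 0 to 7.90 CPM in mTEClo, and the fibroblast list of 6 genes summed to 228 to 478 CPM in mTEChi and 96.1 to 1150 CPM in mTEClo, and the part of fibroblast RNA was not tested.

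Between cTEC and mTEC, *Fgfr2* was 2.67-fold higher in cTEC at P0 (159 ± 65.4 against 59.5 ± 32.97 CPM) and 2.69-fold higher at 4 weeks (112.6 ± 25.1 against 41.9 ± 22.9 CPM, without overlap). The adjusted p was 0.277 and 0.265, and 0.00519 and 0.00508 when only the groups compared shared the spread. The genes that passed were sparse, namely *Fgf7*, *Fgf10* and *Fgf18* at P0 (3 of 7, where 32.1% of all genes did), all higher in mTEC, and *Fgf7* and *Fgfr1* at 4 weeks (2 of 7, where 32.2% did). *Fgf10* in mTEC at P0 was above 0 in 4 of 6 libraries with at most 6.65 CPM, against no count in cTEC (at least 62.9-fold, adjusted p = 0.000611). At P0 the fibroblast list summed to 364 to 463 CPM in mTEC and 13.8 to 111 CPM in cTEC, and the mural list to 2135 to 3129 and 79.8 to 159 CPM. Their part in the calls at P0 was not tested. *Fgf7* in mTEC at 4 weeks rested on 2 of 6 libraries and lost its call without the higher of them, at 7.32 CPM (adjusted p = 0.501). The genes of all these calls met the minimum count through other groups of the fit, and a fit of cTEC and mTEC alone did not test them.

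The next question was how the genes change between birth and 4 weeks in each sorted population. In the fit over 14 groups *Fgf1* passed as higher in 4 of the 6 populations sorted at both ages, and no other gene passed in more than 1. In gp38+CD26+ (1 of 7 genes passed, where 9.57% of all genes did), *Fgf1* went from 0 over 16.3 to 25.9 CPM at P0 to 55.3, 62.4, 147, 164 and 248 CPM at 4 weeks, without overlap (8.97-fold, 15.1 ± 9.97 to 135.4 ± 79.7 CPM, adjusted p = 0.00804). In gp38+CD26- (1 of 7, where 13.46% did) it went from 20.4 over 28.5 to 36.9 CPM to 111 over 125.02 to 180 CPM, again without overlap (4.84-fold, adjusted p = 0.0446), a call lost with RLE normalization, with no filter on low counts and with the 25702-count library kept (adjusted p = 0.0601, 0.0684 and 0.0554). The erythroid list of 4 genes moved with both, from 0.0929 to 2.67 CPM at P0 to 1097 to 2890 CPM at 4 weeks in gp38+CD26+ and from 0 to 0.450 CPM to 21.5 to 3064 CPM in gp38+CD26-, and its part in these rises was not tested.

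Ly51+gp38- cells and cTEC also rose in *Fgf1*. In Ly51+gp38- (1 of 7, where 11.6% of all genes did), *Fgf1* went from 35.3 over 44.8 to 63.6 CPM at P0 to 114.5 over 313 to 410 CPM at 4 weeks, 6.06-fold and without overlap (adjusted p = 0.0244). Several marker lists moved with it: the summed mural list of 6 genes was at a median of 33581 CPM at P0 and 106181 CPM at 4 weeks, the fibroblast list at 7127 and 4360, the haematopoietic list of 5 genes at 12.4 and 208, the epithelial list at 32.1 and 194, and the erythroid list at 0.533 and 193 CPM. Their part in this rise was not tested. In cTEC (2 of 7, where 10.2% did) it went from 0 over 2.60 to 7.31 to 19.2 over 35.04 to 50.6 CPM, 10.6-fold and without overlap (adjusted p = 0.00374). Within the TXCK libraries alone the cTEC means were 4.11 and 44.7 CPM and within DFCK 2.40 and 24.1 CPM. Fitted within one prefix, with at most 3 libraries a group, none of the 4 rises of *Fgf1* passed (adjusted p from 0.184 to 0.368), with log2 changes of 2.19 to 3.39. Marker lists of other cells also stood higher in the cTEC libraries at 4 weeks than at P0. The fibroblast list summed to 337 to 2531 against 13.8 to 111 CPM and the haematopoietic list of 5 genes to 325 to 1493 against 21.4 to 37.6 CPM. The mural list summed to 228 to 770 against 79.8 to 158.9 CPM and the erythroid list to 23.8 to 1002 against 0 to 1.37 CPM. The epithelial list was higher as well, at medians of 7748 against 5606 CPM, and the origin of the RNA behind these lists was not tested. Their part in the rise of *Fgf1* was not tested.

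In CD31+ endothelium 0 of 7 genes passed, where 10.5% of all genes did. A single gene, *Fgf1*, had an unadjusted p under 0.05 (14.2 ± 9.27 against 2.96 ± 4.72 CPM, adjusted p = 0.0599), and DESeq2 called 2, *Fgf1* and *Fgf10*, the latter from 1 library with 0.312 CPM. In mTEC 1 of 7 passed, where 3.91% of all genes did. *Fgfr1* was above 0 in 3 of 6 libraries at P0 and in none at 4 weeks (at least 28.0-fold lower, adjusted p = 0.0122), a call lost without the library with 5.65 CPM. The erythroid list in mTEC went from 7.08 to 41.3 CPM at P0 to 444 to 3414 CPM at 4 weeks, and its part was not tested. *Fgf10* in cTEC, the other call there, rested on 2 of 6 libraries at 4 weeks and was lost without the one with 4.30 CPM. Neither *Fgf10* in cTEC nor *Fgfr1* in mTEC was tested in a fit of the 2 ages alone, where each was below the minimum count. *Fgfr2* did not pass in TEC, with 159 ± 65.4 to 112.6 ± 25.1 CPM in cTEC (adjusted p = 0.951) and 59.5 ± 32.97 to 41.9 ± 22.9 CPM in mTEC (adjusted p = 0.929).

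*Fgf7* and *Fgf10* were lower at 4 weeks in bulk fibroblasts, but this depended on the fit. In gp38+CD26+, *Fgf7* went from 104 ± 31.2 CPM at P0 to 29.0, 45.6, 49.1, 54.99 and 57.6 CPM at 4 weeks, and *Fgf10* from 223 ± 57.9 CPM to 22.6, 58.9, 60.7, 76.0 and 87.9 CPM, both without overlap. In gp38+CD26-, *Fgf7* went from 45.05 ± 8.38 to 11.4 ± 5.78 CPM without overlap and *Fgf10* from 107.01 ± 43.5 to 60.1 ± 19.7 CPM with overlap. None passed in the fit over 14 groups (adjusted p = 0.745, 0.362, 0.34 and 0.803), and all 4 passed when only the 2 ages shared the spread (adjusted p = 0.00589, 0.00122, 0.000166 and 0.0213). The erythroid list, and in gp38+CD26+ the epithelial and mural lists, moved in these libraries as given above, and their part in the falls was not tested.

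The falls were seen within each title prefix, with different sizes. *Fgf10* in gp38+CD26+ went from 245 to 53.1 CPM in TXCK and from 202 to 73.4 CPM in DFCK libraries, and *Fgf7* in gp38+CD26- from 40.2 to 14.04 and from 49.9 to 8.86 CPM. The change with age did not differ between gp38+ fibroblasts and TEC for any of the 7 genes, where it did for 6.78% of all genes. Of them, 2 had an unadjusted p under 0.05, and DESeq2 called *Fgf10*, whose difference of log2 changes was -3.44 ± 1.37 SE (adjusted p = 0.137 in edgeR) and turned to 0.64 in DFCK libraries alone.

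The age series of single cells gave the same genes over 5 ages in nonepithelial stroma. In all fibroblasts pooled, 8 of 8 genes changed over the ages, where 80.3% of all genes did, so the change itself is the rule in these libraries. With only the ages that have 2 libraries, 7 of 8 passed, and *Fgf18* did not (adjusted p = 0.0503). The share of all genes called in that smaller fit is not given here. *Fgf7* was at 2.58 CPM of summed UMIs at E12.5, 8.65 at E13.5, 28.6 and 31.6 at E16.5, 27.9 and 20.8 at P0, and 33.7 and 38.6 CPM at 4 weeks (adjusted p = 6.58e-05). *Fgf10* was at 6.58, 43.7, 82.1 and 78.9, 69.2 and 71.0, and 85.02 and 84.5 CPM in the same order (adjusted p = 1.27e-06). Both ligands were thus low at E12.5 and had reached most of their later level by E16.5.

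Between E16.5 and 4 weeks 6 of 8 genes changed in the pooled fibroblasts, where 58.8% of all genes did. *Fgf7* and *Fgf10* were the exceptions (log2 0.18 ± 0.149 SE, adjusted p = 0.323, and -0.01 ± 0.0509 SE, adjusted p = 0.923). *Fgf1* rose from 5.46 and 5.15 to 32.8 and 28.3 CPM (log2 2.44 ± 0.113 SE, adjusted p = 9.61e-06) and *Fgf2* from 6.33 and 5.96 to 22.0 and 25.4 CPM (adjusted p = 0.000237). *Fgfr1* rose from 106.9 and 106.2 to 174 and 174 CPM (adjusted p = 7.61e-05) and *Fgfr3* from 0.506 and 0.510 to 1.10 and 1.44 CPM (adjusted p = 0.0389). *Fgf18* (34.6 and 37.4 to 25.7 and 29.0 CPM, adjusted p = 0.0309) and *Fgfr2* (4.93 and 4.31 to 2.15 and 3.45 CPM, adjusted p = 0.0251) fell. Leaving out a single library of E16.5 or 4 weeks left 3 or 4 of these calls, with *Fgf1*, *Fgf2* and *Fgfr1* in each. DESeq2 did not call *Fgfr3* or *Fgfr2* (adjusted p = 0.0531 and 0.0542). In the same cells the erythroid list went from 704 and 386 to 1249 and 2002 CPM and the haematopoietic list from 7.46 and 8.94 to 45.3 and 24.1 CPM. Their part in these changes was not tested.

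Between P0 and 4 weeks, a comparison added after the values were seen because the bulk data had these ages, 6 of 8 genes changed in pooled fibroblasts, where 51.4% of all genes did. *Fgf10* rose by 0.29 ± 0.0511 SE on the log2 scale (adjusted p = 0.00351) and *Fgf7* by 0.60 ± 0.150 SE (adjusted p = 0.0154), the second no longer passing when 4-week replicate 2 was left out (adjusted p = 0.103). *Fgf1* (log2 1.32 ± 0.106 SE), *Fgf2* (1.0003 ± 0.185 SE) and *Fgfr1* (0.39 ± 0.0488 SE) also rose, and *Fgfr2* fell (-1.14 ± 0.229 SE). In the same pooled cells the erythroid list went from 276 and 181.9 CPM at P0 to 1249 and 2002 CPM at 4 weeks and the haematopoietic list from 20.004 and 9.83 to 45.3 and 24.1 CPM, and their part in these changes was not tested. The 2 kinds of data therefore gave *Fgf1* rising in both, and *Fgf7* and *Fgf10* higher at 4 weeks in single cells and lower in the sorted fibroblasts. *Fgf2* was far apart in level, at 22.0 and 25.4 CPM in the pooled single-cell fibroblasts at 4 weeks and at 0.266 ± 0.405 and 0.0124 ± 0.0304 CPM in the bulk gp38+CD26+ and gp38+CD26- libraries of that age. *Fgf18* also differed: these single-cell fibroblasts held 515 and 849 UMIs of it at 4 weeks, beside 675 and 1128 of *Fgf7*. The bulk gp38+CD26+ libraries of that age held 7.59 ± 4.15 CPM of *Fgf18* beside 47.3 ± 11.3 CPM of *Fgf7*. Per kilobase of exon these bulk levels were closer, at 6.39 ± 3.49 and 14.5 ± 3.47 CPM per kb. The part of gene length was not tested. The difference between the data sets was not tested, since they were counted and sorted differently.

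**Figure D2:**
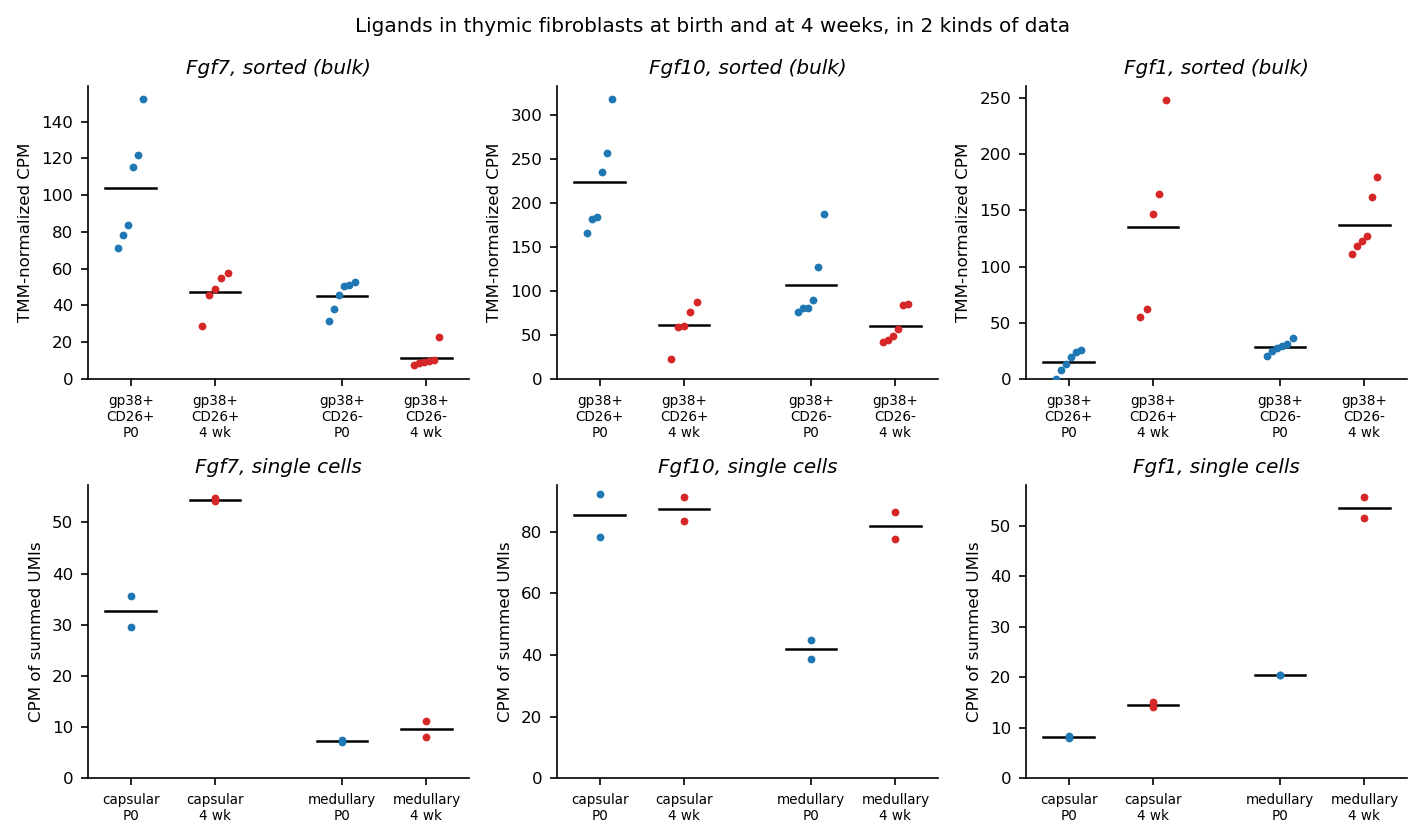
Levels of *Fgf7*, *Fgf10* and *Fgf1* (y axis, CPM) at P0 (blue) and 4 weeks (red) in the bulk gp38+ populations (top, 5 or 6 libraries a group) and in capsular and medullary fibroblasts of the single-cell age series (bottom, 2 libraries a group), with 1 point per library and black lines at the means. *Fgf1* is higher at 4 weeks in every panel, whereas *Fgf7* and *Fgf10* are lower at 4 weeks at the top and not at the bottom.

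The pooled *Fgf10* level hid opposite courses in the authors' subtypes, given here as a description. In capsular fibroblasts as a whole it was at 110 and 102 CPM at E16.5, 78.4 and 92.3 at P0 and 91.2 and 83.5 CPM at 4 weeks, and in medullary fibroblasts at 37.1 and 40.4, 44.97 and 38.7, and 77.5 and 86.3 CPM. Among capsular subtypes, CapFb2b went from 120 and 104 CPM at E16.5 to 70.1 and 79.2 at P0 and 31.9 and 23.6 CPM at 4 weeks. CapFb1b went from 98.02 and 92.99 to 119.3 and 99.5 and to 187.3 and 180.2 CPM. The subtype CapFb2b thus had its lowest postnatal value where CapFb1b had its highest.

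*Fgf1* rose with age in several stromal cell types of the series. In mural cells (pericytes and vascular smooth muscle) it was at 0.419 CPM at E12.5, 1.39 at E13.5, 9.82 and 10.4 at E16.5, 26.9 and 29.3 at P0 and 85.2 and 79.6 CPM at 4 weeks. In medullary fibroblasts it went from 2.02 and 1.16 CPM at the first ages to 55.6 and 51.6 CPM at 4 weeks, and in capsular fibroblasts from 1.13 and 0.849 to 14.03 and 15.1 CPM. Mesothelium, the thin cell layer on the capsule, had the highest mean of all subtypes, at 154.9 and 215 CPM at P0 and 428 and 243 CPM at 4 weeks, from 228, 7, 32 and 157 cells. In the mural cells the mural list went from 5560 and 2731 CPM at the first ages to 17377 and 19071 CPM at 4 weeks. The erythroid list went from 1.26 and 3.34 to 1507 and 4758 CPM and the haematopoietic list from 4.19 and 3.62 to 70.9 and 42.9 CPM. Their part in the rise of *Fgf1* was not tested.

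In single cells the mean level of *Fgfr3* was highest in arterial endothelium (EnA). In endothelium as a whole it went from 0.412 CPM at E12.5 and 0.860 at E13.5 over 3.99 and 6.02 at E16.5 and 16.3 and 14.02 at P0 to 21.7 and 20.9 CPM at 4 weeks. EnA held 34.1 CPM in the age series and 24.1 CPM in the newborn data, where its libraries held 0 to 8 UMIs of *Fgfr3*. MmTEC (11.8 CPM) came next there, and the value of mesothelium (10.9 CPM) rested on 1 UMI. In the endothelial cells of the age series the erythroid list went from 0.823 and 4.41 CPM at the first ages to 11577 and 21908 CPM at 4 weeks and the fibroblast list from 41.6 and 361 to 1043 and 1469 CPM, and their part in this course was not tested. In the bulk CD31+ libraries it was at 3.29 ± 4.35 CPM at P0 and 4.38 ± 4.41 CPM at 4 weeks, beside 6.71 ± 4.56 CPM in mTEC at P0, with overlap. In single-cell fibroblasts it was between 0.506 and 3.39 CPM, above endothelium at E12.5 and E13.5 and below it later. *Fgfr2* was low in pooled fibroblasts at every age, at 2.15 to 7.13 CPM. Its highest mean among the subtypes of the age series was in mesothelium (10.1 CPM, with 9 and 50 UMIs at 4 weeks), followed by CapFb3 (9.17 CPM). Bulk CD31+ libraries at P0 held 22.8 ± 14.2 CPM of it.

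**Figure D3:**
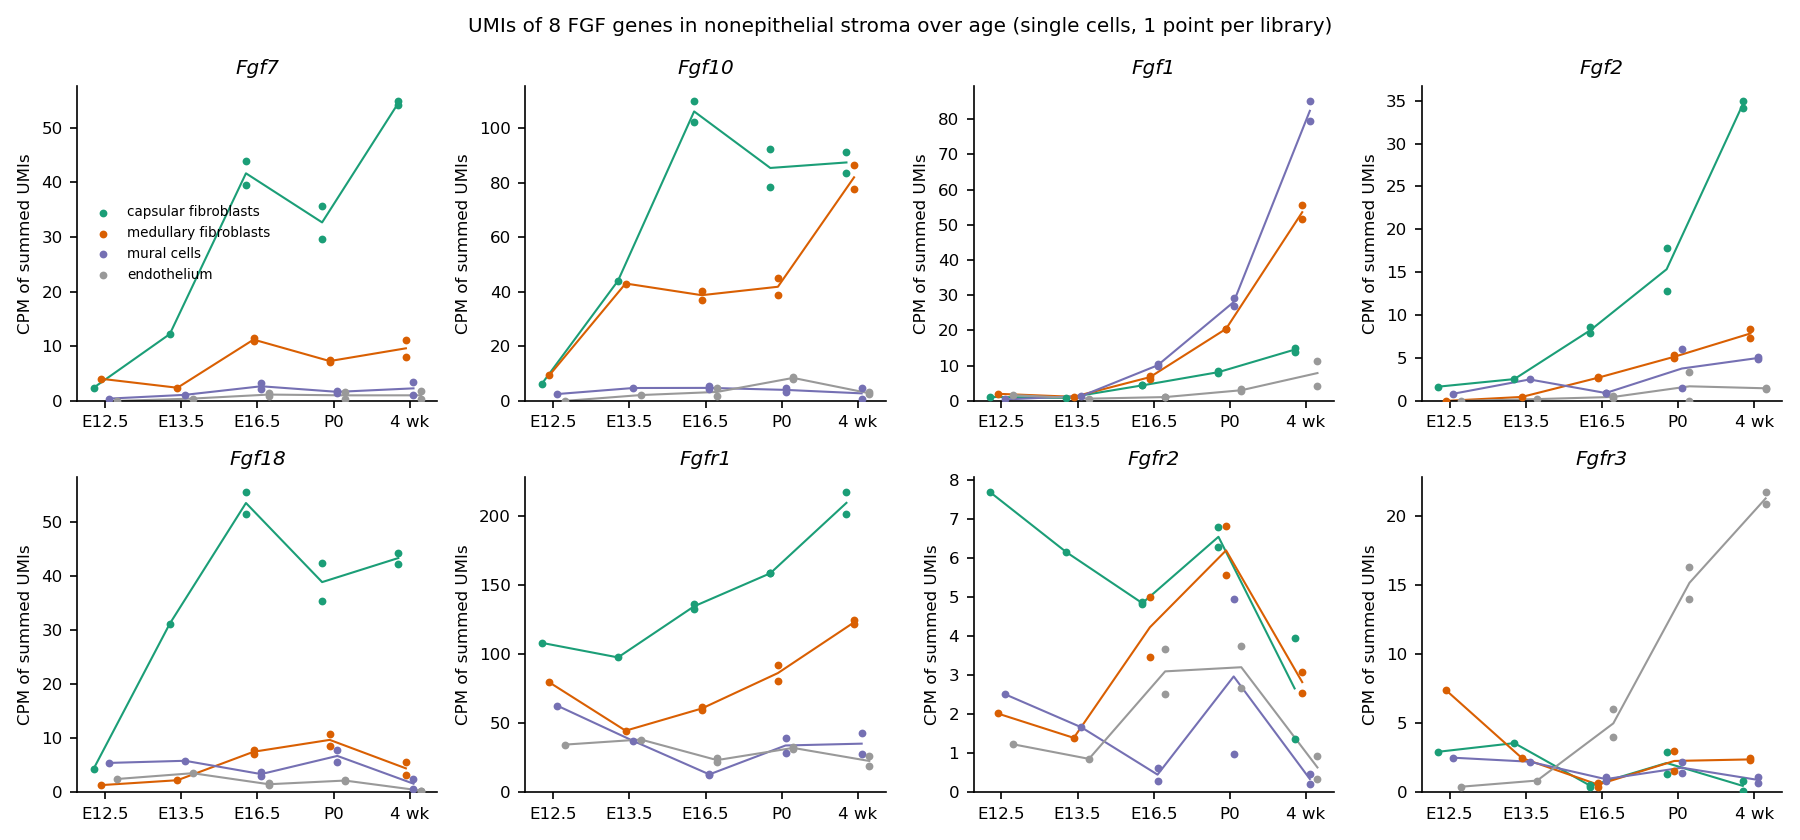
CPM of summed UMIs of the 8 genes (y axis) at 5 ages (x axis) in capsular and medullary fibroblasts, mural cells and endothelium of the single-cell age series, with 1 point per library and lines through the means. At P0 and 4 weeks *Fgf7*, *Fgf18* and *Fgf2* stand highest in capsular fibroblasts, *Fgf1* climbs in mural cells and medullary fibroblasts, and *Fgfr3* climbs in endothelium.

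Tested subtype by subtype, 58 of 75 gene and subtype pairs changed over the 5 ages in 11 subtypes, where 56.7% of all such pairs did. *Fgf1* and *Fgfr1* did so in 10 of 11 subtypes each, *Fgf10* in 9 of 10, *Fgf7* in 8 of 9, *Fgf2* and *Fgf18* in 7 of 9 each, *Fgfr3* in 4 of 8 and *Fgfr2* in 3 of 8. The call of *Fgf1* in CapFb3 was lost with DESeq2 (adjusted p = 0.229), with the replicate number as a block (0.0651) and without any of 5 libraries. E12.5 and E13.5 have 1 library each and were assumed to vary like the replicated ages. With only E16.5, P0 and 4 weeks, 45 of 64 pairs passed, and of the 58 calls 2 were of pairs no longer tested and 12 were lost, 4 of the 12 in CapFb3 (*Fgf7*, *Fgf10*, *Fgf18* and *Fgfr1*). By gene, *Fgf7* lost its call in CapFb1a, CapFb3, MedFb1a, Pc and Pr (edgeR adjusted p from 0.103 to 0.740). The share of all pairs called in that smaller fit is not given here, so the 45 of 64 are not read as high or low.

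The highest subtypes by mean level over libraries are described without a test, since the authors' clusters were made from these counts. In the age series *Fgf7* (54.4 CPM) and *Fgf10* (145 CPM) were highest in CapFb1c, *Fgf2* (30.3 CPM), *Fgf18* (107.95 CPM) and *Fgfr1* (225 CPM) in CapFb4, and *Fgf1* (157.9 CPM) in mesothelium followed by vascular smooth muscle (55.7 CPM). In the newborn data the order began with CapFb2b for *Fgf7* (114 CPM) and *Fgf2* (31.004 CPM), CapFb1a for *Fgf10* (95.1 CPM), mesothelium for *Fgf1* (62.2 CPM over 3 libraries, 1 of them at 0) and CapFb4 for *Fgf18* (73.01 CPM) and *Fgfr1* (305 CPM). Capsular subtypes led for 4 of the 5 ligands in both data sets, and for *Fgf1* they did in neither.

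The newborn data set source and receiver side by side in the same libraries. *Fgfr2* was at 181, 159 and 136.9 CPM in pooled TEC of the WT libraries and 208, 144.1 and 211 CPM in those of Tbx1+/-Crkl+/-. Among TEC subtypes its mean over 6 libraries was 204 ± 34.6 CPM in PcTEC, 176 ± 42.2 in McTEC, 166 ± 46.6 in ItTEC, 123 ± 25.7 in PrTEC and 22.1 ± 13.3 CPM in MmTEC. Neighbours in this order overlap down to PrTEC, whereas the highest MmTEC library (42.01 CPM) lay below the lowest PrTEC library (93.6 CPM).

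Detection per cell followed the levels. *Fgfr2* was seen in 48.7% of 4826 PcTEC (31.7% after thinning each cell to 2000 UMIs), at a median of 3310.5 UMIs per cell, and in 7.53% of 518 MmTEC. In fibroblasts it was seen in 4.77% of 5806 cells, beside 4.2% of 1665 endothelial cells with median depths of 3240 and 2459 UMIs, and after thinning in 2.72% and 2.71%. Whether endothelium is background for this gene was not tested. The bulk CD31+ libraries at P0 held 22.8 ± 14.2 CPM of *Fgfr2*, none of the 6 at 0. Those at 4 weeks held 7.60 ± 10.04 CPM, 2 of the 6 at 0. Endothelium of the age series held 11 and 8 UMIs of it at P0. *Epcam* was at 24.3 to 76.9 CPM in the newborn fibroblasts and at 0.266 to 5.23 CPM in those of the age series. The epithelial list was at 397 to 704 CPM in newborn endothelium and at 8.51 and 4.34 CPM in P0 endothelium of the age series. The part of epithelial RNA in these shares was not tested. *Fgf7* and *Fgf10* were seen in 13.3% and 14.9% of fibroblasts, against 0.881% and 1.17% of 9083 TEC and 0.721% and 0.961% of endothelial cells. After thinning, the TEC shares (0.563% and 0.592%) lay close to the endothelial ones (0.611% and 0.698%). Whether the TEC shares are background was not tested, and pooled TEC, of which 4826 are PcTEC, do not speak for the medullary ones.

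**Figure D4:**
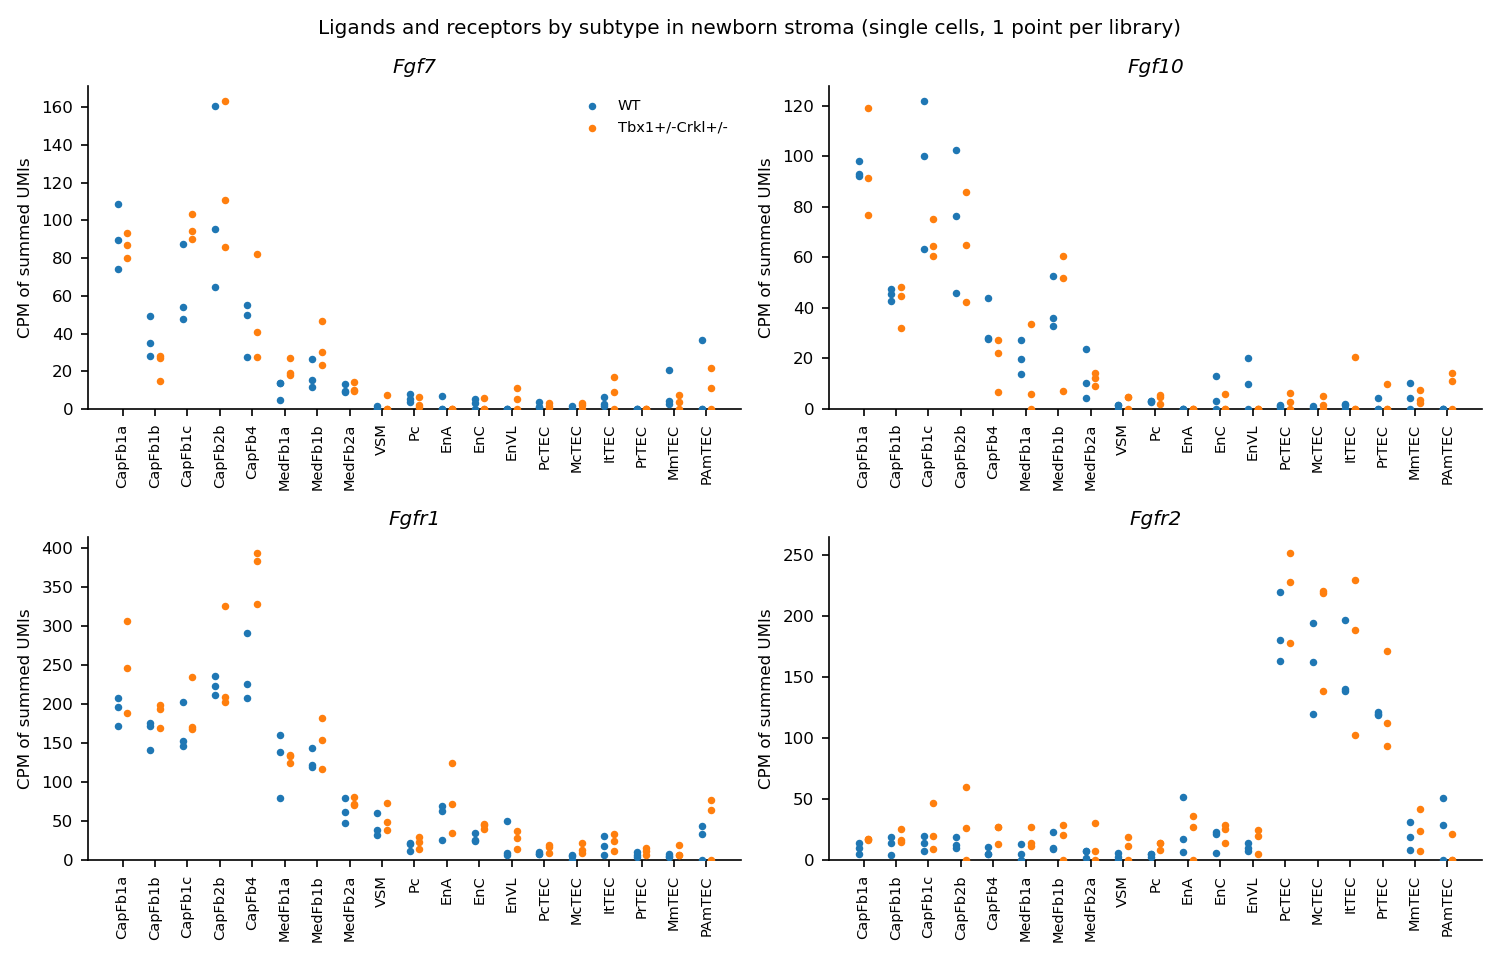
CPM of summed UMIs (y axis) of 2 ligands and 2 receptors in newborn subtypes (x axis), with 1 point per library with at least 5 cells of the subtype (blue, WT; orange, Tbx1+/-Crkl+/-). Ligand points are high in fibroblast subtypes and *Fgfr2* points in PcTEC, McTEC, ItTEC and PrTEC.

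Whether the loss of 1 allele each of *Tbx1* and *Crkl* altered these genes was asked in the same libraries. In pooled fibroblasts 0 of 7 genes differed between genotypes, where 0% of 11897 genes did, and in pooled TEC 0 of 6, where 0% of 13718 genes did. Of them, 2 had an unadjusted p under 0.05 in fibroblasts (*Fgf18*, 9.12, 7.66 and 10.6 CPM against 13.1, 12.3 and 30.5 CPM in WT, log2 -1.18 ± 0.37 SE, adjusted p = 0.379, and *Fgfr2*, adjusted p = 0.519) and 1 in TEC (*Fgfr1*, 11.4, 23.7 and 16.6 against 10.1, 7.44 and 10.6 CPM, adjusted p = 0.689), and DESeq2 called none. With no filter on low counts *Fgf18* passed in fibroblasts. The fibroblast list in the pooled TEC was at 670, 2324 and 1328 CPM in Tbx1+/-Crkl+/- and 1091, 688 and 1034 CPM in WT, in the same order as *Fgfr1* over the Tbx1+/-Crkl+/- libraries, and its part was not tested.

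The ligand pair was close between genotypes. *Fgf7* in pooled fibroblasts was at 42.3, 44.7 and 45.2 CPM in Tbx1+/-Crkl+/- and 40.4, 37.5 and 44.7 CPM in WT, and *Fgf10* at 49.8, 52.6 and 31.4 against 46.4, 53.2 and 45.8 CPM, with overlap in both. *Fgfr2* in TEC differed by 0.22 ± 0.209 SE on the log2 scale (adjusted p = 0.733). Subtype by subtype, 0 of 31 pairs passed, where 0.0481% of all pairs did, with 5 at an unadjusted p under 0.05, none called by DESeq2, and log2 differences from -1.12 to 1.27. A p above the threshold does not show equal levels: on simulated counts this TEC comparison found 24.5% of genes changed 2-fold and 87.4% of those changed 4-fold.

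Genes with the most similar pattern were named from the correlation of mean log2(CPM + 1) over the 14 bulk groups among 20417 genes, which share libraries and is given as a description. The gene most like *Fgf7* was *Fgf10* (Pearson r = 0.979), followed by *Scara5* (0.967), *Golt1b* (0.967), *Emilin2* (0.965) and *Vcan* (0.961). Those most like *Fgf10* after *Fgf7* were *Golt1b* (0.979), *4930570G19Rik* (0.972), *Mmp16* (0.968) and *Gpr153* (0.966). Those most like *Fgfr2* were *Tppp* (0.910), *4930539J05Rik* (0.897), *Reps1* (0.895), *Shisa2* (0.888) and *4933439K11Rik* (0.888).

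The rest of the pathway was counted in 5 lists of 64 genes. Of 11 feedback inhibitors and target genes, 9 were higher in fibroblasts than in TEC at P0 and 8 at 4 weeks, and none was lower. Of all 20417 genes, 37.9% and 39.3% differed in either direction, and 3300 and 3054 were higher in fibroblasts. The median log2 difference of the list was 2.21 and 2.28, beside -0.35 and -0.41 over all genes. *Spry4*, a Sprouty inhibitor, stood in gp38+CD26+ libraries at 129 ± 60.0 CPM and in cTEC at 2.59 ± 2.05 CPM at P0. *Il17rd*, an inhibitor also called SEF, and *Spry1* were also higher (log2 4.75 and 3.08 at P0).

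Between P0 and 4 weeks, 1 to 3 of the 11 fell in 5 of the 6 sorted populations and none rose. Of all 20417 genes, 3.91% to 13.46% changed in either direction over the 6 populations, and 294 to 1178 fell. The marker lists of other cells that moved with *Fgf1* moved in the same libraries, and in CD31+ the mural list went from a median of 184.3 to 1366 CPM and the erythroid list from 28.7 to 2437 CPM. Their part in these falls was not tested. *Spry2* fell in gp38+CD26+ from 418 to 1105 CPM at P0 to 71.0 to 116 CPM at 4 weeks (log2 -2.65 ± 0.302 SE, adjusted p = 3.01e-10), with *Spry4* (-2.39) and the phosphatase gene *Dusp6* (-1.97). In CD31+ cells *Spry2* passed (-1.16), in gp38+CD26- *Dusp6* (-1.52) and *Spry2* (-1.03) passed, in Ly51+gp38- *Etv4*, *Dusp6* (-2.12) and *Spry2* (-1.25), and in cTEC *Il17rd* and *Dusp6* (from 152 ± 19.5 to 41.5 ± 11.5 CPM). *Etv4*, an ETS factor induced by FGF, had no count in Ly51+gp38- at 4 weeks. The fall of *Spry2* was larger in fibroblasts than in TEC (difference of log2 changes -1.33 ± 0.270 SE, adjusted p = 0.000418). In the pooled single-cell fibroblasts 5 of 11 passed between these ages, where 51.4% of all genes did: *Spry2* (-0.45) and *Spry4* (-0.60) fell as well, whereas *Etv1*, *Il17rd* and *Spred2* rose by 0.70, 0.37 and 0.36 on the log2 scale.

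The other 4 lists are set beside the same shares of all genes, 37.9% at P0 and 39.3% at 4 weeks, and no list is read as standing apart from them. Of 15 further FGF family genes tested, 3 passed between fibroblasts and TEC at P0 and 6 at 4 weeks, all higher in TEC. Those at P0 were *Fgf21*, *Fgf14* and *Fgf12*, of which the latter pair encode FGF homologous factors that act inside the cell and are no ligands of the receptors. *Fgf21*, a ligand known as a hormone of the liver, was at 365 ± 54.8 CPM in mTEC at P0, 511 ± 99.8 CPM in mTEC at 4 weeks and 4.90 ± 3.02 CPM in cTEC at P0, and had no count in gp38+CD26+ fibroblasts at P0. *Fgfbp1*, a carrier that frees FGFs from the matrix, was at 115.3 ± 36.5 CPM in mTEC and 14.3 ± 6.53 CPM in cTEC at P0 and likewise had no count in gp38+CD26+ fibroblasts. Of 19 heparan sulfate genes 11 passed at P0 (8 higher in fibroblasts, among them *Gpc3*, *Gpc6* and *Hspg2*, and 3 lower, *Gpc1*, *Hs2st1* and *Sdc4*) and 14 at 4 weeks (10 higher and 4 lower). Of 8 other receptors and binding proteins *Flrt2* (higher in fibroblasts) and *Fgfbp1* passed at P0, joined at 4 weeks by *Klb*, the co-receptor of FGF21, which was higher in TEC. Of 8 receptor adapters 2 passed at P0, *Shb* and *Frs3*, both higher in TEC.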

How the data were processed

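Per the labels and the study's methods, the single-cell libraries were made with the 10x Genomics 3′ chemistry and counted with Cell Ranger 3.1.0, and the authors deposited UMI counts per gene and cell together with the subtype they gave each cell. The bulk libraries were made from ultra-low input RNA, and the authors aligned them with STAR 2.5.3a, counted them per gene with HTSeq and deposited raw counts; whether counting used strand is not given in the sources used here, so *Fgf10*, *Fgf2*, *Fgfr1*, *Fgfr2* and *Fgfr3*, which share 123 to 998 exon bases with another gene, may hold reads of it. The submitters' processing notes name the builds mm10 and GRCh38. Gene positions and exon lengths are from GRCm38 (GENCODE vM21) and promoters from RefSeq GRCm38.p6.

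UMI counts were summed per library and subtype, where it had at least 20 cells for a test and 5 for a level. Counts were TMM-normalized and tested with edgeR 4.0.16 (quasi-likelihood, R 4.3.3) over all genes that passed filterByExpr, with Benjamini-Hochberg adjustment and a threshold of 0.05. The bulk fit held 83 libraries of 14 groups, and its members' spread was pooled over them; 98 deposited rows that name no gene, spike-ins included, took 7.81% to 29.4% of reads and were left out. E12.5 and E13.5 have 1 library each. On simulated counts, the bulk cTEC comparison found 2.02% of genes changed 2-fold and 26.3% of those changed 4-fold, so a difference of such size can be missed by this fit. Intervals and floors cover counting error only, and the floor is 3 counts over a group. Cells were kept as the authors deposited them, after filters that per the study's methods kept those called singlets by DoubletFinder, and no further doublet caller was run, and 0.430% and 0.206% of barcodes in the age series and the newborn data were shared between libraries.

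The genes, the gene lists and the tests were chosen with earlier results of these data known. Genes most alike were the 5 with the highest Pearson correlation of group means. Correlations of deviations between libraries with the same replicate number were -0.163 to 0.00826 in the age series and -0.487 to 0.196 in the newborn data. These few values cannot decide whether the numbers pair the libraries, and with 2 libraries an age the deviations mirror each other. The study's methods call the newborn WT mice littermates, and the labels do not say which libraries share a litter. Alternatives were DESeq2 1.42.0, RLE normalization, no filter, a fit on the groups compared alone, a single title prefix alone and the 25702-count library kept. Further ones were another cell minimum, the ages with 2 libraries alone, the replicate block and, for the bulk data, a block by library number. This last block was added after the values were seen. Single libraries were also left out, but not every library in turn. Those left out are given further on or with the calls concerned.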

Additional observations from a re-analysis of the deposited data

Results flagged for a closer look

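In 44 combinations of gene and bulk group with a median of at least 5 CPM, the gap of the highest or lowest library to its neighbour was compared with the range of the group by Dixon's ratio, which chance passes in about 1 of 20. It was passed in 2. *Fgfr2* in CD31+ endothelium at 4 weeks was at 26.6 CPM in 1 library, with the next at 8.51 and the lowest at 0 CPM. *Fgf7* in gp38+CD26- fibroblasts at 4 weeks was at 23.1 CPM in 1 library and at 7.66 to 10.6 CPM in the others, and all of these lay below the lowest library at P0 (31.7 CPM). The cause was not tested in either.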

How the results depend on the processing

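The counts of called members are compared here with those under other settings. The shares of all genes called under those settings are not given here. With DESeq2 the count was 2 in CD31+ by age and 1 in the age difference between fibroblasts and TEC. The count for gp38+CD26- by age was 0 with no filter, with RLE normalization and with the 25702-count library kept, and no filter gave 1 for genotype in pooled fibroblasts. A fit of only the groups compared also reran the filter on low counts, so some sparse genes called in the main fit were no longer tested. Its counts were 3 for gp38+CD26+ and 3 for gp38+CD26- by age, 1 for cTEC and 0 for mTEC by age, 2 and 3 for gp38+CD26+ against gp38+CD26- at P0 and 4 weeks, 1 for cTEC against mTEC at 4 weeks and 1 for mTEChi against mTEClo. Of the calls still tested, 1 was lost. With DFCK libraries alone they were 0 for gp38+CD26+, gp38+CD26-, cTEC and mTEC by age, 0 for gp38+CD26+ against gp38+CD26- and for cTEC against mTEC at 4 weeks, 1 for cTEC against mTEC at P0 and for mTEChi against mTEClo, and 2 and 1 for fibroblasts against Ly51+gp38- cells at P0 and 4 weeks. With TXCK libraries alone they were 0 for the same 4 populations by age and for gp38+CD26+ against gp38+CD26- at 4 weeks, 1 for mTEChi against mTEClo, 3 for fibroblasts against TEC at P0, and 0 and 1 for fibroblasts against Ly51+gp38- cells at P0 and 4 weeks. Within one prefix a group has 3 libraries or fewer. The age difference of *Fgf10* between fibroblasts and TEC turned to 0.64 in DFCK libraries alone, with an adjusted p of 1. In the single-cell data, 1 library at a time was left out, of the 6 of E16.5, P0 and 4 weeks or of the 6 newborn ones. This gave 52 to 61 pairs over ages, 6 to 8 pooled fibroblast genes over ages, 3 to 6 for 4 weeks against E16.5, 5 to 7 for 4 weeks against P0 and 0 to 0 for genotype. In the bulk data only the 5 gp38+CD26+ libraries of 4 weeks were left out in turn. This gave 3 to 4 for fibroblasts against Ly51+gp38- cells and 6 to 6 for fibroblasts against TEC at 4 weeks, 1 to 1 for gp38+CD26+ by age, 0 to 1 for gp38+CD26+ against gp38+CD26- at 4 weeks and 0 to 0 for the age difference. The replicate block gave 58 pairs over ages and 8 and 6 pooled genes, and changed no other count, though the call of *Fgf1* in CapFb3 was lost and that of *Fgfr3* in Pr gained. Bulk libraries carry no shared replicate number, but their library numbers repeat in steps of 12 over the populations of an age, and what this marks is not given. Deviations of libraries at the same step correlated at a median of 0.0481 at P0 and 0.0177 at 4 weeks, with 15 and 5 pairs over 0.1 and most below it, and in cTEC at P0 6 of 6 libraries were closest to the mTEC library at the same step. A replicate block by this number, added after the values were seen, gave 4 for cTEC against mTEC at P0, 3 for fibroblasts against Ly51+gp38- cells at each age (without *Fgf7* at P0 and *Fgfr1* at 4 weeks) and the reported count elsewhere. The adjusted p was 0.344 for *Fgfr2* in cTEC against mTEC and 0.842 for *Fgf7* between the gp38+ populations at P0. In all, 208 of the recomputed counts stayed within 1.5 times the reported ones and 37 did not.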

Other observations

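Among the further FGF genes, *Fgf21* separated the medullary populations at 4 weeks, at 533 ± 56.9 CPM in mTEChi and 169 ± 74.7 CPM in mTEClo (SD, n = 6 each), with ranges of 438 to 607 and 76.8 to 265 CPM that do not overlap. *Fgfbp1* was at 142.97 ± 22.7 CPM in mTEChi and 48.2 ± 53.6 CPM in mTEClo, with overlap. Ly51+gp38- cells held *Spry4* at 190.9 ± 50.3 CPM at P0 and 101.3 ± 42.7 CPM at 4 weeks.

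In the age series, *Fgfr1* in capsular fibroblasts went from 108.2 CPM at E12.5 and 97.7 CPM at E13.5 to 218 and 201 CPM at 4 weeks. *Fgf18* in the same cells was at 4.38 CPM at E12.5, 31.2 at E13.5, 51.5 and 55.4 at E16.5 and 44.3 and 42.2 CPM at 4 weeks, and in medullary fibroblasts it stayed between 1.35 and 10.8 CPM. *Fgfr1* in mural cells fell to 13.3 and 12.8 CPM at E16.5, from 62.8 CPM at E12.5, and was at 27.9 and 42.7 CPM at 4 weeks. These courses are given as values, with no test of their own.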
